A study of Mus musculus with 20 samples.

Results

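The microRNA described here is miR-375-3p, which is 1 of 1545 entries in a small RNA sequencing table of whole mouse hearts. It was chosen by name, with its levels in these hearts and its correlations with other entries already known, so those levels and correlations are given as a description and carry no test. The 20 hearts came from C57BL/6J mice in 4 groups. They were 7 hearts with myocardial infarction and CIH together (MI+CIH), 4 hearts with myocardial infarction alone (MI), 4 hearts with CIH alone and 5 hearts of sham controls. CIH is not spelled out in the labels. It is taken to mean chronic intermittent hypoxia, in which mice breathe air that drops in oxygen again and again, a model of sleep apnoea. No genotype other than the strain is labelled for any group. Sex, age, the time after infarction and the exposure schedule are not given in the sources used here. Each library was made from total RNA of a heart, so fewer cells of a type and less RNA per cell cannot be told apart in any value below.

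MicroRNAs (miRNAs) are short RNAs cut from a hairpin precursor that pair with messenger RNAs, mainly through a seed at bases 2 to 8, and lower their output. miR-375 is best known from pancreatic islets, where it limits insulin secretion and is needed for a normal beta cell mass, and from pituitary, gut and other epithelia. It is not counted among the miRNAs of heart muscle cells, the best known of which are miR-1, miR-133, miR-208 and miR-499. The question behind the comparisons is which of the 4 kinds of heart held it, and which other miRNAs were high in the same hearts.

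The hairpin gene Mir375 lies on chromosome 1 of GRCm38.p6, minus strand, at chr1:74900658-74900721, and overlaps no other annotated gene. The nearest genes are Cfap65, a gene of cilia and flagella at a distance of 1350 bases, and Cryba2, a crystallin gene at a distance of 1816 bases. The 64-base hairpin is shown because it is the source of the measured RNA. Its capitals mark the 5p arm as RefSeq gives it, and miR-375-3p comes from the opposite arm, in lower case after it. No value of miR-375-5p was analysed here.

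Mir375 hairpin: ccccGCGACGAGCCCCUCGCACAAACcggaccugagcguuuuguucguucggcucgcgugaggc

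The 6 miRNAs whose pattern over the hearts was most like that of miR-375-3p are shown next, because the likeness described further on turns on them. These are mature sequences from RefSeq (GRCm38.p6), with the seed in capitals.

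miR-34b-3p: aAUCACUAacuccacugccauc
miR-200b-3p: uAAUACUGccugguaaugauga
miR-200a-3p: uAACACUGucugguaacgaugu
miR-92b-3p: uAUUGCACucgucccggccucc
miR-182-5p: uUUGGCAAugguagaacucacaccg
miR-183-5p: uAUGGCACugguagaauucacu

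No pair of these 6 has the same seed. Other members of the miR-200 family repeat the seeds of miR-200b-3p and miR-200a-3p, and they are shown for that reason.

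miR-200c-3p: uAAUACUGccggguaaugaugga
miR-429-3p: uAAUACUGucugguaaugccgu
miR-141-3p: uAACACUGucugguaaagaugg

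The seed AAUACUG is shared by miR-200b-3p, miR-200c-3p and miR-429-3p, and the seed AACACUG by miR-200a-3p and miR-141-3p. They come from 2 places in the genome: Mir200b, Mir200a and Mir429 lie together on chromosome 4, and Mir200c and Mir141 on chromosome 6.

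Levels are in RPM, reads of a miRNA per 1000000 miRNA reads of the same library, not divided by length. The libraries held 1991323 to 18138415 reads, so that a single read was worth 0.0551 to 0.502 RPM. By the levels of the other miRNAs they formed 3 sets, for which no label gives a name. Set A held 11 libraries, which were MI+CIH 1, MI 2, all 4 CIH hearts and all 5 sham hearts. Set B held MI+CIH 2 to 5 with MI 1 and MI 3, and set C held MI+CIH 6 and 7 with MI 4. Sham and CIH hearts are in set A alone, so outside that set the library set cannot be told apart from infarction, and the comparisons are also given within sets or with the set as a term. Both sham 1 and MI 2 went against their labels in the injury miRNA miR-214-3p. MI 2 had 21.3 RPM, against 85.1 to 1135 RPM in the other 3 MI hearts, and sham 1 had 198 RPM, against 21.0 to 35.5 RPM in the other 4 sham hearts. In miR-21a-5p, which also rises in injured tissue, sham 1 stood out at 100570 RPM, against 17878 to 28616 RPM in the other sham hearts, while MI 2 at 17547 RPM lay within the 7732 to 20197 RPM of the other MI hearts. Those MI and sham ranges overlapped, with the MI range the lower, so miR-21a-5p does not tell whether MI 2 was infarcted. Whether the labels of sham 1 and MI 2 were exchanged cannot be told from the files.

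miR-375-3p was highest in MI+CIH hearts, lower in MI hearts, lower again in CIH hearts and close to the limit of detection in sham hearts. The MI+CIH hearts had 1.78, 26.5, 33.6, 101, 42.0, 19.0 and 14.8 RPM in replicates 1 to 7. The MI hearts had 17.9, 0.345, 7.97 and 0.882 RPM in replicates 1 to 4. MI+CIH 1 was the only MI+CIH heart under 10 RPM, and MI 1 was the only MI heart above it. The CIH hearts had 0.419, 0.584, 3.77 and 0.253 RPM, with replicate 3 above the others. The sham hearts had 0.183, 0, 0.293, 0.526 and 0 RPM, which is 2, 0, 3, 3 and 0 reads. A count of 0 allows up to about 3 reads, or 0.405 RPM in sham 2 and 0.439 RPM in sham 5, for counting error alone. The exact 95% Poisson intervals given for other counts reach somewhat higher, to 0.498 RPM in sham 2 and 0.540 RPM in sham 5.

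**Figure D1:**
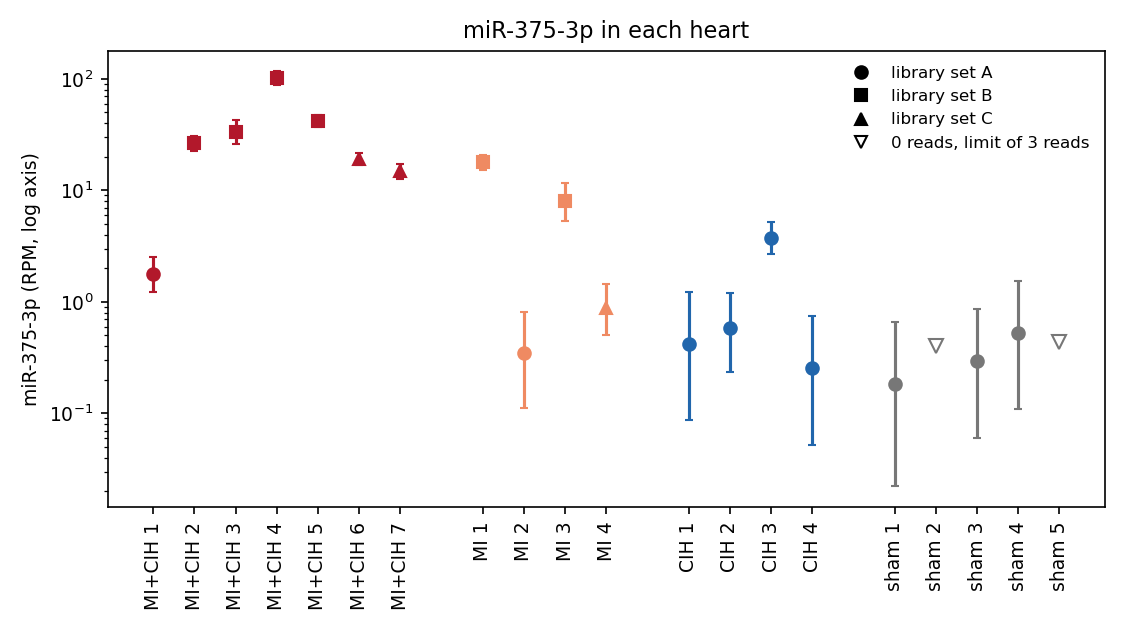
miR-375-3p in each heart in RPM on a log axis, with MI+CIH in red, MI in orange, CIH in blue and sham in grey, and the library set by marker shape. Bars are exact 95% Poisson intervals of the reads, and open triangles mark the limit of 3 reads where none was counted. Of the 7 MI+CIH hearts, 6 lie between 14.8 and 101 RPM, and the 5 sham hearts lie at 0.526 RPM or below.

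By group, miR-375-3p averaged 34.2 ± 32.4 RPM in MI+CIH hearts (SD, n = 7), 6.77 ± 8.18 RPM in MI hearts (n = 4), 1.26 ± 1.68 RPM in CIH hearts (n = 4) and 0.200 ± 0.221 RPM in sham hearts (n = 5). The medians were 26.5, 4.43, 0.502 and 0.183 RPM in that order of groups. Behind the means stand 1154 reads in MI+CIH, 212 in MI, 52 in CIH and 8 in sham libraries, so the sham value is the least precise, at 0.195 RPM with the reads pooled (exact 95% Poisson interval 0.0840 to 0.383 RPM). The SD was about as large as the mean in all 4 groups. A single heart carried much of it in 3 of them. Without MI+CIH 4 the MI+CIH mean was 22.9 RPM, without MI 1 the MI mean was 3.07 RPM, and without CIH 3 the CIH mean was 0.419 RPM. MI hearts averaged 8.91 RPM without MI 2, and sham hearts 0.205 RPM without sham 1, the libraries that went against their labels.

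The ranges of neighbouring groups overlapped, while the MI+CIH and sham ranges did not. MI 1 and MI 3 lay above the lowest MI+CIH heart, CIH 3 lay above it too, and MI 2 lay below sham 4 and among the CIH hearts. Every MI+CIH heart was above every sham heart, which held for 49 of the 360 miRNAs tested (13.6%). On the log2(RPM + 1) scale the group means were 4.54 in MI+CIH, 2.19 in MI, 0.94 in CIH and 0.24 in sham, against a pooled SD within groups of 1.32 (16 degrees of freedom). The step between MI+CIH and MI, 2.35, was larger than that SD. The steps between MI and CIH and between CIH and sham, the second of which was 0.69, were smaller than it. That SD is pooled over all groups and is not the spread of CIH and sham hearts alone. With 0.5 RPM added in place of 1 RPM the step between CIH and sham was 0.99, so its size depends on the scale.

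Set against MI alone, hearts with MI+CIH held 5.05 times as much miR-375-3p by the ratio of means. The direction was the same in each library set. In set A, MI+CIH 1 had 1.78 RPM and MI 2 had 0.345 RPM, a ratio of 5.15 with a 95% interval of 1.99 to 16.9 from the counting error of 32 against 5 reads. In set B, the 4 MI+CIH hearts averaged 50.9 ± 34.3 RPM and the 2 MI hearts 12.9 ± 7.003 RPM, with the lowest MI+CIH heart (26.5 RPM) above the higher MI heart (17.9 RPM). In set C, MI+CIH 6 and 7 had 19.0 and 14.8 RPM and MI 4 had 0.882 RPM. Each of the 7 MI+CIH hearts was thus above every MI heart of its own set, as were 16 of the 360 miRNAs tested (4.44%), while 3 (0.833%) lay below in all 7. Since miR-375-3p was chosen for this contrast, nothing is read from that count. Sets A and C hold a single MI heart each, so for MI+CIH 1, 6 and 7 the setting is against 1 heart, and in set A that heart is MI 2. With the library set as a term the difference of log2(RPM + 1) was 2.03, and without sham 1 and MI 2 it was 1.77.

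The difference from sham hearts moved with the library sets. MI+CIH hearts averaged 170 times the sham mean and MI hearts 33.8 times, both over 8 sham reads. By set and over all groups, miR-375-3p averaged 38.2 ± 33.2 RPM in set B (n = 6), 11.5 ± 9.47 RPM in set C (n = 3) and 0.741 ± 1.11 RPM in set A (n = 11). In set A, MI+CIH 1 lay above every library but CIH 3, and MI 2 lay among the CIH and sham hearts. MI 2 had 1.77 times the pooled sham level (0.457 to 6.15, counting error of 5 against 8 reads). MI+CIH 1 had 9.13 times the pooled sham level (4.12 to 22.9) and 1.41 times the pooled CIH level (0.880 to 2.24). With the set as a term, the difference in log2(RPM + 1) from sham was 1.72 for MI+CIH hearts, where it had been 4.29, and -0.31 for MI hearts, where it had been 1.94. The values with the set term rest on MI+CIH 1 and MI 2, the only infarcted hearts in the set that holds sham.

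In CIH hearts without infarction the level turned on a single library. CIH hearts had 6.47 times the pooled sham level (95% interval 3.05 to 15.8, 52 against 8 reads). CIH 3 supplied 39 of the 52 reads, and its 3.77 RPM has an interval of 2.68 to 5.15 RPM. Without CIH 3 the ratio was 2.16 (0.828 to 6.00, 13 against 8 reads). These intervals cover the counting of reads and not the spread between hearts, so they do not say whether the groups differ. MI+CIH hearts averaged 27.2 times the CIH mean, and the log2(RPM + 1) difference was 3.60, or 1.03 with the set as a term. The interaction, the MI+CIH to MI difference minus the CIH to sham difference, was 1.66 in log2(RPM + 1), or 1.34 with the set as a term. By edgeR on the recovered reads, which differs in scale, normalisation and model, it was -0.77 in log2, so its direction was not the same under every alternative.

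In abundance miR-375-3p was a minor miRNA of these hearts that varied widely. Its mean over 20 libraries, 13.6 RPM, ranked 244 of the 360 tested, and it ranked 130 of 693 entries with reads in its highest library, MI+CIH 4. The SD of its log2(RPM + 1) over the hearts was 2.20, which ranked 15 of 360, against a median of 1.20 over the tested miRNAs. It had reads in 18 of 20 libraries and reached 5 RPM in 8 of 20, and it entered the tested set through infarcted hearts alone. The miRNAs next above it in mean level were miR-330-3p, miR-181c-5p and miR-29c-3p, at 14.1, 14.1 and 13.9 RPM. Of these, miR-29c-3p ran the other way over the groups, with means of 8.39 RPM in MI+CIH, 10.2 RPM in MI, 15.2 RPM in CIH and 23.5 RPM in sham. The miRNAs next below were miR-92b-3p, miR-34b-3p and miR-125a-3p, at 13.6, 13.4 and 13.2 RPM, and miR-92b-3p and miR-34b-3p return below as miRNAs of like pattern.

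Likeness to miR-375-3p was measured as Pearson's r over the 20 hearts between the deviations of log2(RPM + 1) from the mean of the heart's own library set, so that differences between sets do not enter it. The miRNAs were read from the same libraries, and each deviation still holds the differences between groups within a set, so r is a description and has no p. Over the 345 miRNAs compared, r had a median of 0.0328, with 5% of values below -0.459 and 5% above 0.465, and 10 miRNAs reached 0.7. The 6 with the highest r were miR-34b-3p at 0.887, miR-200b-3p at 0.837, miR-200a-3p at 0.831, miR-92b-3p at 0.814, miR-182-5p at 0.790 and miR-183-5p at 0.768. By Spearman's rho they had 0.788, 0.794, 0.824, 0.796, 0.739 and 0.710 in the same order. With MI+CIH 4 and MI+CIH 5 left out, the hearts farthest from the median, r was 0.735 to 0.896 for these 6. Within set A alone (n = 11) it was 0.691 to 0.836 and within set B alone (n = 6) 0.707 to 0.870. Spearman's rho within set A, where most miR-375-3p values rest on few reads and CIH 3 stands above the rest, was 0.460 for miR-34b-3p, 0.519 for miR-92b-3p and 0.642 to 0.884 for the other 4. In both sets other miRNAs ranked above most of them, since 2 of the 6 were among the top 6 of set A and 1 among those of set B.

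Hearts high in miR-375-3p were also high in these miRNAs. miR-34b-3p, made in ciliated epithelium, had a lowest, median and highest value of 3.00, 35.2 and 57.9 RPM in MI+CIH hearts, against 12.5, 1.38, 4.13 and 4.91 RPM in MI hearts 1 to 4. In CIH hearts miR-34b-3p had 0.559, 0.417, 2.71 and 0.422 RPM, against 1.73, 0.135, 0.684, 1.40 and 0.879 RPM in sham hearts. As for miR-375-3p, CIH 3 was the highest CIH heart and MI+CIH 1 the lowest MI+CIH heart. miR-200b-3p, which holds cells in the epithelial state by repressing Zeb1 and Zeb2, had 30.9, 201 and 547 RPM as lowest, median and highest value in MI+CIH hearts, against 256, 23.9, 25.4 and 14.1 RPM in MI hearts. It had 10.2, 12.1, 54.0 and 6.50 RPM in CIH hearts, against 8.22, 9.18, 12.9, 40.3 and 15.4 RPM in sham hearts. The highest heart of miR-200b-3p was MI+CIH 4, the highest of miR-375-3p too, and CIH 3 again stood above the other CIH hearts. MI 1 was the highest MI heart for both, and for miR-183-5p (87.5 RPM) and miR-182-5p (37.4 RPM).

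**Figure D2:**
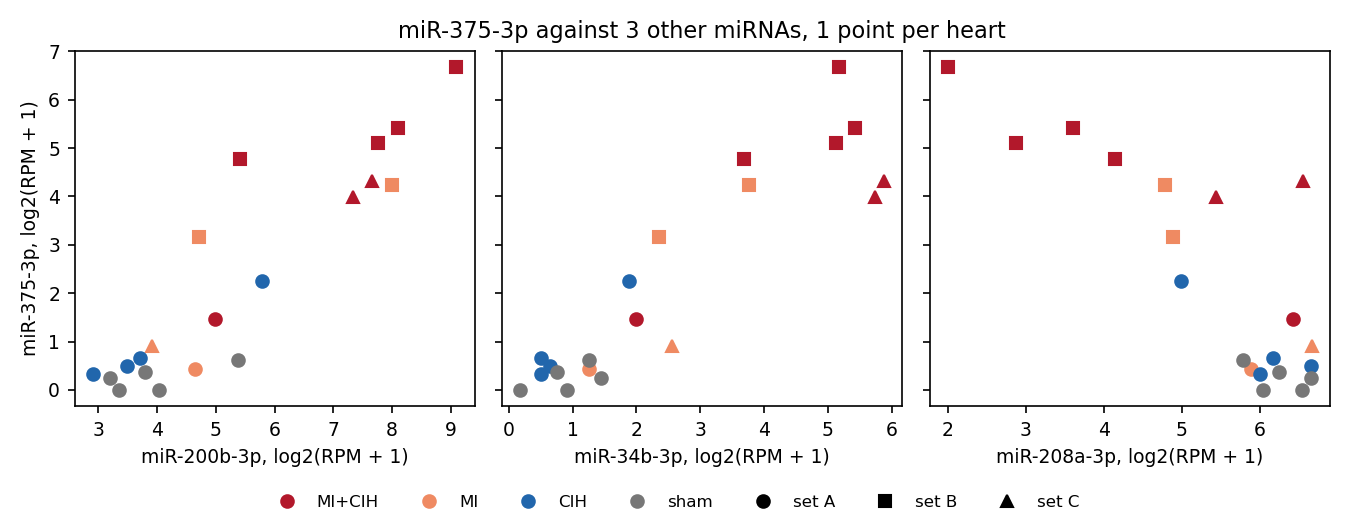
miR-375-3p (vertical axis) against miR-200b-3p, miR-34b-3p and miR-208a-3p (horizontal axes), all as log2(RPM + 1), with a point for each of the 20 hearts, colour for the group and shape for the library set. It lies high where miR-200b-3p and miR-34b-3p are high, while the lowest miR-208a-3p value (3.01 RPM) belongs to the heart with the most miR-375-3p (101 RPM).

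The match was not a fixed proportion. miR-375-3p amounted to 0% to 6.99% of miR-200b-3p in set A (median 2.27%), 6.98% to 63.8% in set B (median 17.1%) and 6.25% to 9.44% in set C (median 9.23%). Heart sham 4 is a case where they parted, with 40.3 RPM of miR-200b-3p and 37.9 RPM of miR-200a-3p and only 0.526 RPM of miR-375-3p, although that was still the highest sham value. miR-92b-3p, of the miR-92 seed family, was the next below it in mean level and the fourth in likeness, at 32.0 ± 33.2 RPM in MI+CIH hearts, 9.70 ± 10.6 RPM in MI hearts, 0.999 ± 0.905 RPM in CIH hearts and 1.09 ± 0.972 RPM in sham hearts. At the other end of the scale were the heart muscle miRNA miR-208a-3p, which sits in an intron of Myh6, with r of -0.700, then miR-378a-5p at -0.625 and miR-9-5p at -0.613. The other heart muscle miRNAs were not all as low. For miR-499-5p r was -0.520, for miR-133a-3p -0.504, for miR-1a-3p -0.231 and for miR-208b-3p -0.0795. miR-208a-3p averaged 36.8 ± 37.996 RPM in MI+CIH hearts, 53.5 ± 34.5 RPM in MI hearts, 66.3 ± 28.5 RPM in CIH hearts and 77.2 ± 18.9 RPM in sham hearts.

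Grouped by the cells they are known from, members of the miR-200 family, the miR-183 cluster and the ciliated list lay above the 5th to 95th percentile band of r, though not every member of those lists did. The erythroid miRNA miR-451a, at 0.608, also lay above the band. Of 6 epithelial miRNAs tested, the 4 tested members of the miR-200 family had r of 0.737 to 0.837, while miR-205-5p and miR-203-3p of stratified epithelium had 0.308 and 0.227. The remaining member of the family, miR-141-3p, did not pass the filter. It had 3.11, 0.765, 0, 0, 2.72, 11.9 and 6.57 RPM in MI+CIH hearts 1 to 7. It was thus not seen in MI+CIH 4, the highest heart of miR-375-3p. In the miR-183 cluster, known from sensory and other epithelia, miR-96-5p had 0.185, far below miR-182-5p and miR-183-5p. The 3 tested members of the ciliated list, all from Mir34b and Mir34c, had 0.887 for miR-34b-3p, 0.766 for miR-34c-3p and 0.549 for miR-34c-5p. Among miRNAs shared by endocrine, neural and pancreatic cells, miR-184-3p had 0.251, miR-7a-5p, abundant in islets, -0.0826, and miR-9-5p, a neural miRNA, -0.613. The pancreatic miRNAs miR-216a-5p, miR-216b-5p and miR-217-5p reached at most 0.183, 0.175 and 2.38 RPM in any heart. In the liver and gut list miR-192-5p had r of -0.468, miR-194-5p -0.410, miR-215-5p -0.0833 and miR-122-5p -0.0793, and miR-802-5p reached at most 0.0913 RPM.

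**Figure D3:**
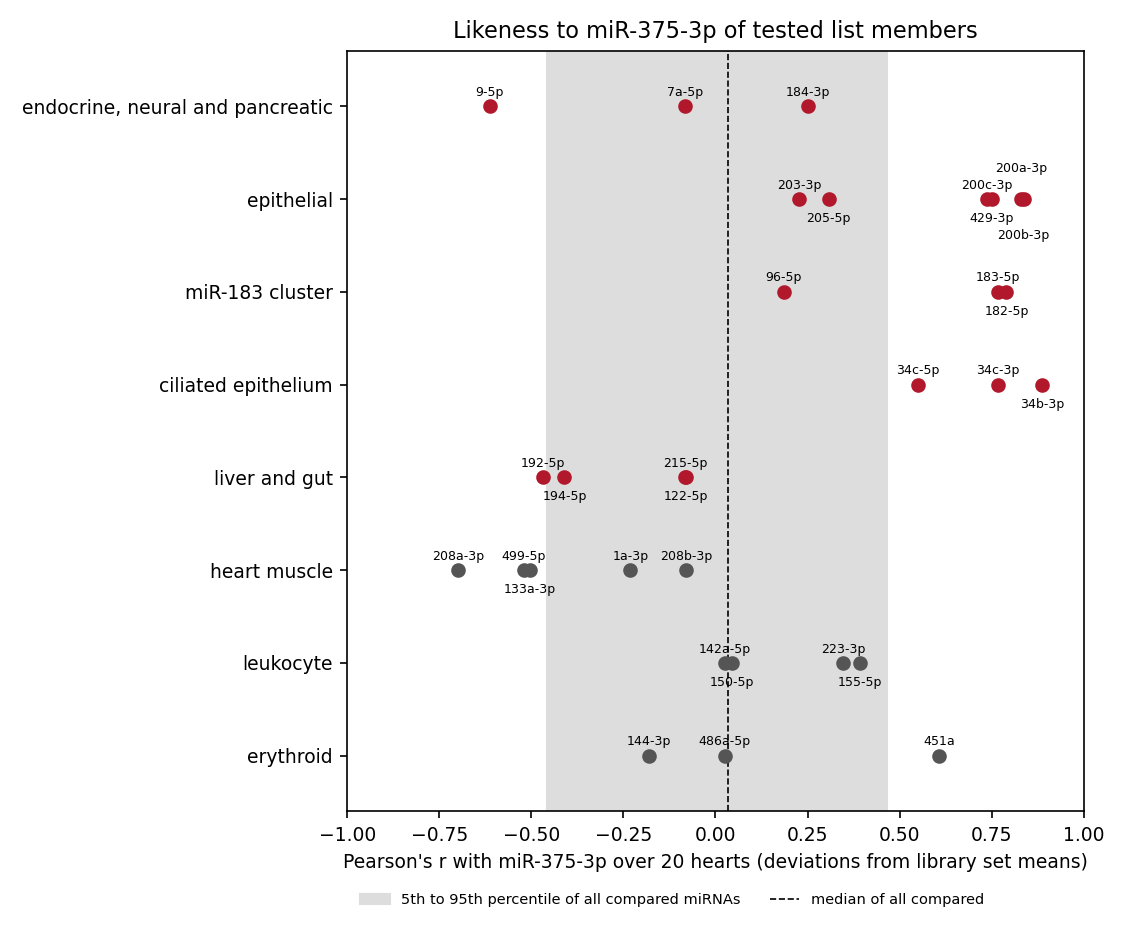
Pearson's r with miR-375-3p over 20 hearts (horizontal axis, deviations from library set means) for each tested list member, 1 row per list, with red points for the lists of epithelial, endocrine, ciliated, liver and gut miRNAs and grey points for heart muscle, leukocyte and erythroid miRNAs. The shaded band runs from -0.459 to 0.465, the 5th to 95th percentile of the 345 miRNAs compared. To its right lie the miR-200 members, miR-182-5p, miR-183-5p, the miR-34b/c entries and the erythroid miRNA miR-451a.

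Changes of these lists, without miR-375-3p, were tested with limma over all 360 miRNAs. Of the 19 list members tested, 0 passed an adjusted p of 0.05 in MI+CIH against MI, where 0 of 360 miRNAs passed (0%), 17 had an unadjusted p under 0.05, and edgeR and DESeq2 also called 0. The log2 differences had medians of 1.41 for the epithelial list (positive in 6 of 6), 1.20 for the miR-183 cluster (3 of 3), 2.24 for the ciliated list (3 of 3), 0.01 for the endocrine list (2 of 3) and 0.06 for the liver and gut list (2 of 4), against 0.41 over all 360. With the library set as a term the medians were 1.22, 0.98, 1.97, -0.16 and 0.01, against 0.27 over all. That fit called 2 of 360 miRNAs (0.556%), of which 1 was a list member: miR-34b-3p was higher in MI+CIH by 1.97 (SE 0.42, limma adjusted p 0.0284). Both miR-34b-3p and miR-34c-3p reached 5 RPM in 6 MI+CIH hearts, 1 MI heart and 0 CIH or sham hearts. Without the MI+CIH hearts neither would have passed the filter, and nor would miR-429-3p, miR-205-5p, miR-96-5p and miR-122-5p. The medians and positive counts of the lists that hold these miRNAs are no support beyond that choice. miR-34b-3p is also the miRNA most like miR-375-3p, so its p is no support beyond that choice. miR-34b-3p exceeded all MI hearts of the same set in 6 of 7 MI+CIH hearts. The adjusted p of miR-34b-3p was 0.338 without the set term and 0.113 with the set term and median-of-ratios scaling, and ran over all alternatives from 0.01298, without MI+CIH 1, to 0.995. Leaving out single hearts, limma called 3 of 360 without MI+CIH 1 and 1 without MI 3, and 0 without any other. By the count of MI+CIH hearts above all MI hearts of the same set, miR-34c-3p had 7 of 7. For miR-200a-3p, miR-200b-3p, miR-429-3p, miR-182-5p and miR-183-5p the count was 5 of 7, and for miR-200c-3p 3 of 7. Outside these lists miR-451a of red cells and miR-155-5p of leukocytes also had 7 of 7.

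**Figure D4:**
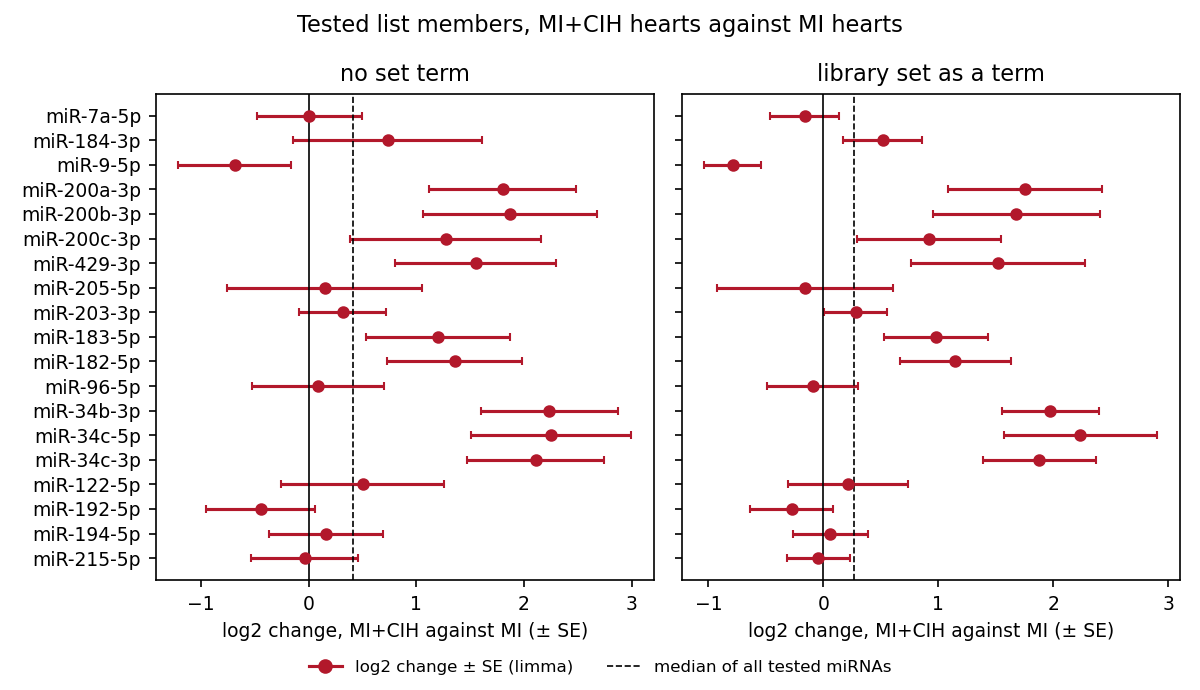
Log2 difference in MI+CIH against MI (horizontal axis, limma, ± SE) for the 19 tested list members, without (left) and with (right) the library set as a term. The dashed line is the median of all 360 miRNAs, 0.41 on the left and 0.27 on the right, and the miR-200 members, miR-182-5p, miR-183-5p and the miR-34b/c entries lie to its right in both.

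Set against sham hearts, MI+CIH hearts had 204 of 360 miRNAs past the threshold (56.7%), 188 higher (52.2%) and 16 lower (4.44%). With TMM scaling the split was 51 higher and 63 lower, and with median-of-ratios scaling 61 and 51, since RPM moved the median of all miRNAs by 1.39 on the log2 scale and the scalings by -0.08 and 0.12. Of the 19 list members 12 rose and 1 fell, and the calls numbered 6 with TMM, 8 with median-of-ratios scaling and 6 by edgeR. For 7 of the 19 fewer than 4 CIH and sham hearts reached 5 RPM, so they passed the filter only with infarcted hearts, and their rise is no support beyond that choice. They are miR-34b-3p, miR-34c-3p, miR-200c-3p, miR-429-3p, miR-205-5p, miR-96-5p and miR-122-5p, of which the 4 with no CIH or sham heart at that level are miR-34b-3p, miR-34c-3p, miR-205-5p and miR-96-5p. The epithelial list rose in 5 of 6, led by miR-200c-3p at 3.71 (SE 0.83, limma adjusted p 0.00228) and miR-200b-3p at 3.24 (SE 0.75, adjusted p 0.00264). The ciliated list rose in 3 of 3 tested, with miR-34b-3p at 3.81 (SE 0.59, limma adjusted p 0.000490), and the miR-183 cluster in 2 of 3, with miR-183-5p at 3.08 (SE 0.62, adjusted p 0.00143). The 3 ciliated members tested all come from Mir34b and Mir34c, close together on chromosome 9. Of those not tested, miR-34b-5p, miR-449a-5p and miR-449c-5p reached at most 3.61, 10.7 and 0.510 RPM in MI+CIH hearts. In MI+CIH 4, the highest heart of miR-375-3p, they had 0, 1.51 and 0 RPM. Their highest sham values were 0.822, 0.405 and 0 RPM. In the endocrine list only miR-184-3p, a miRNA of islets, lens and cornea, rose, by 2.40 (SE 0.82, adjusted p 0.0198), with 94.5 to 289 RPM in the 4 MI+CIH hearts of set B and 12.0 to 19.9 RPM in the other 3. In the liver and gut list miR-122-5p rose by 1.98 (SE 0.71, adjusted p 0.0243) and miR-192-5p fell by 1.55 (SE 0.47, adjusted p 0.0124). Adding the library set turned miR-122-5p to -0.33, and miR-205-5p, which rose by 2.46 without it, to -0.0075. In the limma fit with the library set as a term, 0 of 360 passed in this comparison (0%) and 21 had an unadjusted p under 0.05.

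Against CIH, MI+CIH hearts had 205 miRNAs past the threshold (56.9%), 197 higher (54.7%) and 8 lower (2.22%), or 37 and 53 with TMM scaling, and of the 19 list members 11 rose and 1, miR-192-5p, fell, with 5 calls under TMM scaling, 6 under median-of-ratios scaling and 5 by edgeR. Of the members that rose, miR-34b-3p, miR-34c-3p, miR-200c-3p, miR-429-3p and miR-205-5p passed the filter only with infarcted hearts. Their rise is no support beyond that choice. With the set as a term 0 miRNAs passed (0%), with 62 at an unadjusted p under 0.05. For MI against sham the limma count was 0 of 360 (0%), although 101 had an unadjusted p under 0.05. DESeq2 called 39 and edgeR 0. This count turned on MI 2, for limma called 113 without it, 6 of them list members, and 114 without MI 2 and sham 1. It was 31 without MI+CIH 1. For CIH against sham the limma count was 0 (0%), and 1 miRNA had an unadjusted p under 0.05. For the interaction it was 0 (0%), and 14 had one. In both, edgeR also called 0, while DESeq2 called 1 in CIH against sham.

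The summed levels of markers of other cells varied among the groups and the library sets. The 5 heart muscle miRNAs summed to 88429 to 269465 RPM in MI+CIH hearts (median 150370), 164363 to 300726 RPM in MI hearts (median 240035), 252947 to 317715 RPM in CIH hearts (median 302337) and 193400 to 278567 RPM in sham hearts (median 274814). Most of each sum was miR-1a-3p, and the members did not move alike. In log2, MI+CIH minus sham was -0.82 for miR-1a-3p, -1.82 for miR-208a-3p, -1.84 for miR-499-5p, 0.71 for miR-208b-3p and 1.60 for miR-133a-3p. With the set as a term these were -0.39, -0.58, -0.65, 1.82 and -0.13. The 5 leukocyte miRNAs summed to 361 to 1930 RPM in MI+CIH, 207 to 1599 RPM in MI, 248 to 505 RPM in CIH and 281 to 652 RPM in sham hearts. Among them MI+CIH minus sham was -1.12 for miR-142a-5p, -0.50 for miR-142a-3p, 1.95 for miR-150-5p, 2.72 for miR-155-5p and 1.95 for miR-223-3p. With the set as a term these were -0.25, 0.38, -0.46, -0.045 and 0.76. The 3 erythroid miRNAs summed to 1396 to 15221 RPM in MI+CIH, 1001 to 7127 RPM in MI, 1087 to 2450 RPM in CIH and 568.4 to 3807 RPM in sham hearts. Here too the members parted, with MI+CIH minus sham at -1.67 for miR-144-3p, 1.24 for miR-451a and 2.51 for miR-486a-5p. With the set as a term these were -0.62, 0.88 and -0.48. Beside them, the 7 epithelial miRNAs summed to 207 to 1049 RPM in MI+CIH, 112 to 883 RPM in MI, 75.4 to 212 RPM in CIH and 82.6 to 185 RPM in sham hearts. No marker in these 4 lists was at 0 in every heart of a group. By set, the medians in A, B and C were 274960, 138608 and 269465 RPM for heart muscle, 409, 1517 and 361 RPM for leukocyte, 1453, 7517 and 3011 RPM for erythroid and 102, 683 and 532 RPM for epithelial miRNAs. Over single hearts, r with miR-375-3p was 0.608, 0.025 and -0.180 for the erythroid miRNAs miR-451a, miR-486a-5p and miR-144-3p. It was 0.392, 0.348, 0.0436 and 0.0253 for the leukocyte miRNAs miR-155-5p, miR-223-3p, miR-150-5p and miR-142a-5p. The part of other cell types in the level of miR-375-3p was not tested.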

How the data were processed

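Small RNA from 20 mouse hearts was sequenced. Per the labels, RNA came from flash frozen hearts by Trizol, and 3 µg of it entered a NEBNext small RNA kit. Bowtie, DESeq 1.8.3 and build mm10 are named per the submitters' processing notes, in roles that are not stated. The deposited values, headed TPM, are RPM by their values: no length enters, columns sum to 1000000, and 100% of values were whole multiples of 1 read (tolerance 0.05 reads). The counting rules and miRBase release are not given in the sources used here. The labels do not say that libraries came from separate animals, so p-values measure the spread between these samples.

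The 360 miRNAs tested reached 5 RPM in 4 or more libraries. On log2(RPM + 1), limma 3.58.1 (R 4.3.3) fitted group means over 20 libraries with a trend, two-sided, with Benjamini-Hochberg adjustment over the 360. Alternatives were pseudocounts, filters, scalings, sample weights, other sample sets, the replicate block, the library set as a term, and edgeR 4.0.16 and DESeq2 1.42.0 on recovered reads. Library sets came from average linkage clustering (1 - r, without miR-375-3p), with r of 0.908 to 0.994 within and 0.710 to 0.933 between sets. Entries that repeat another (12 pairs, 7.79% to 31.6% of reads) were left out of the likeness. Intervals cover counting error only.

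miR-375-3p and the lists were chosen with earlier results of these data known. Named miRNAs are the list members (at most 4 per list and contrast by smallest p), the 6 most and 3 least like miR-375-3p, and the 3 next above and 3 next below it in mean. Chosen after seeing the data were miR-214-3p, miR-21a-5p, and the set term without sham 1 and MI 2 or with median-of-ratios scaling. The pipeline was tested on simulated data.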

Additional observations from a re-analysis of the deposited data

Results flagged for a closer look

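Of 40 groups of hearts examined (10 miRNAs in 4 groups), 10 had a heart whose gap to its nearest neighbour was large for the group's range (Dixon's 95% critical value). That value is passed by about 1 in 20 groups of independent, normally distributed values. The values here are RPM without a log, of miRNAs picked for like or opposite patterns, so the 10 cannot be set against that rate. The miRNAs were chosen with their values known, so this marks values for a second look and tests nothing. miR-375-3p stood apart in MI+CIH 4, at 101 RPM, with the gap 0.597 of the range (critical value 0.568), and in CIH 3, at 3.77 RPM (0.906 against 0.829). CIH 3 also stood apart for miR-34b-3p at 2.71 RPM, miR-200b-3p at 54.0 RPM and miR-200a-3p at 59.1 RPM. MI 1 stood apart for miR-200b-3p at 256 RPM and miR-183-5p at 87.5 RPM. sham 4 stood apart for miR-200b-3p at 40.3 RPM, miR-200a-3p at 37.9 RPM and miR-92b-3p at 2.81 RPM. The other miRNAs were picked for their likeness to miR-375-3p, so these values of CIH 3 and MI 1 are not independent of its own.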

How the results depend on the processing

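The direction of the miR-375-3p difference between MI+CIH and MI, and between MI+CIH and each of sham and CIH, was the same in all alternatives run. In log2(RPM + 1) unless a tool is named, MI+CIH minus sham was 2.51 with a pseudocount of 5 RPM, 1.72 with the set term, 1.23 with the set term without sham 1 and MI 2, 1.71 with the set term and median-of-ratios scaling, and 5.87 by DESeq2. MI minus sham was 3.39 with sample weights (a fit that stopped before convergence), -0.31, -1.05 and -0.066 in the 3 fits with the set term in the same order, and 3.51 by DESeq2. CIH minus sham was 3.03 by edgeR and 3.06 by DESeq2. MI+CIH minus CIH was 2.27 with a pseudocount of 5 RPM, 2.25 with TMM, and 1.03, 0.54 and 0.68 with the set term. Once MI 2 is left out, MI+CIH 1 is the only infarcted heart in set A, which holds all sham and CIH hearts. The values 1.23, -1.05 and 0.54 therefore rest on that single heart for their link to sham or CIH. The interaction was -0.77 by edgeR and -0.70 by DESeq2. Leaving out each heart in turn, the differences ran from 1.77 to 3.04 (MI+CIH minus MI), 3.94 to 4.81 (MI+CIH minus sham), 1.26 to 2.53 (MI minus sham), 0.25 to 0.90 (CIH minus sham), 3.25 to 4.11 (MI+CIH minus CIH) and 1.07 to 2.34 (interaction).

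Counts of called miRNAs, with list members after each, moved as follows. In MI+CIH against MI they were 1 and 1 with sample weights, 2 and 1 with the set term, and 4 and 2 with it without sham 1 and MI 2. In MI+CIH against sham they were 114 and 6 with TMM, 112 and 8 with median-of-ratios, 85 and 6 by edgeR, and 0 and 0 in the 3 fits with the set term. In MI against sham they were 6 with totals lacking repeats, 261 and 15 with sample weights, 114 and 5 without sham 1 and MI 2, and 39 and 2 by DESeq2. In CIH against sham they were 2 with sample weights and 1 by DESeq2. In MI+CIH against CIH they were 90 and 5 with TMM, 97 and 6 with median-of-ratios, 308 with sample weights, 75 and 5 by edgeR, 133 by DESeq2, and 0 and 0, 21 and 1, and 0 and 0 in the fits with the set term. The 21 and 1 come from the fit without sham 1 and MI 2, where MI+CIH 1 is the only infarcted heart in the set of the CIH hearts. Nothing is read from them. Leaving out each heart gave 0 to 3, 148 to 239, 0 to 113, 0 to 0, 162 to 234 and 0 to 0 calls, and 0 to 2, 11 to 15, 0 to 6, 0 to 0, 10 to 15 and 0 to 0 list members, in the order MI+CIH against MI and sham, MI and CIH against sham, MI+CIH against CIH, interaction. Of the 6 miRNAs most like miR-375-3p, 2 remained with set A alone and 1 with set B alone. Against sham, miR-205-5p turned to -0.0075 with the set term and -0.14 with median-of-ratios added, and miR-122-5p to -0.33, -0.33 and -0.62 in the 3 set fits. Against CIH, miR-192-5p turned to 0.0102 with the set term without sham 1 and MI 2. The cause was not tested. Replicate numbers do not pair the hearts (10 of 25 same-number pairs correlated above 0.1, median -0.0143), and a replicate block gave 0, 218, 0, 0, 211 and 0 calls in the same order.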
